A study of Solenopsis invicta with 4 samples.

Results

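The enzymes that make and break down cyclic AMP in the fire ant Solenopsis invicta, and the Cep78 gene beside one of them, were followed over temperature. Members are 3 genes: adenylate cyclase type 8 (LOC105208160), phosphodiesterase 8A (LOC105195169) and a homolog of protein Cep78 (LOC105195170). Every assembled contig whose nucleotide hit or KEGG gene entry names one of them was taken, which gave 8 of the 9001 distinct contigs in the authors' deposited tables: 3 for the cyclase, 4 for the phosphodiesterase and 1 for Cep78. The genes were picked because they were known to differ between the libraries, so their levels and ratios are a description. Contigs of these genes that no table lists could not be counted, so a gene's reads and summed levels below cover its listed contigs only.

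Adult medium workers of a wild-type strain labelled RIFA came from colonies held at 25 °C. They spent 24 h at 10, 20 or 40 °C, or at 30 °C as the control, and RNA of whole bodies was sequenced. Each temperature has 1 library, so no value has a replicate check and no test was made; the labels do not say how many ants or colonies went into a library. The authors' scaled library sizes ranged over 23204029 reads (20 °C), 30024104 (10 °C), 38277639 (30 °C) and 43393168 (40 °C), and CPM values are read counts divided by these sizes on the usual scale. Intervals are exact 95% intervals for counting error alone. Of the tissue markers looked for, venom allergen contigs were listed in each table (3 to 5 contigs), while troponin and myosin heavy chain were in none, and a contig missing from a table is not absent from the body.

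Cyclic AMP is a second messenger that adenylate cyclases make from ATP, mostly on a signal from G protein-coupled receptors, and that phosphodiesterases cut to AMP. It acts chiefly through protein kinase A, which A-kinase anchor proteins hold in place and which reaches transcription through CREB factors. In Drosophila, the calcium/calmodulin-responsive adenylate cyclase serves learning in the brain. Cep78 is known from vertebrate cells as a protein of the centrosome and of the base of the cilium.

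Each deposited table sets 1 temperature against 30 °C and lists only contigs past the authors' limits. Of the members, the cyclase contig c410997_g10_i2 and the phosphodiesterase contig c406308_g1_i1 are in all tables, and the other 6 contigs are missing from at least 1. For a temperature that a contig's tables leave out, the read count was solved from the deposited mean log2 CPM, which covers all 4 libraries. With known counts hidden, the solution was unique and right for 302 of 302 contigs in each of 6 arrangements, and such values are called solved below. At 40 °C 6 of the 8 contigs were listed, as were 15.1% of the 26997 contigs that the authors' adjusted p-values imply. All 6 were at least 2-fold different from 30 °C on log2(CPM + 1), 5 higher and 1 lower, beside 83.5% of the 2210 listed contigs whose mean reached 1 CPM (40.1% higher, 43.4% lower). At 10 °C 4 were listed (17.0% of all contigs) and 3 passed 2-fold, 2 higher and 1 lower, beside 83.2% of 2114 (36.2% higher, 47.0% lower). At 20 °C 3 were listed (10.9%) and 2 passed 2-fold, 1 higher and 1 lower, beside 79.7% of 1360 (31.4% higher, 48.3% lower). The contigs were chosen from these tables, so nothing is read from these shares. On the scaling of the deposited FPKM values, the log2 ratios shift by -0.02 (10 °C), -0.64 (20 °C) and 0.52 (40 °C). These shifts are too small to reverse the smallest listed member ratio, which was 3.25-fold. All 13 listed member ratios thus kept their direction by construction. On that scaling 129 contigs passed 2-fold upwards and 755 downwards at 20 °C, where the authors' scaling gave 427 and 657, and 1196 upwards and 470 downwards at 40 °C, where it gave 886 and 960.

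**Figure D1:**
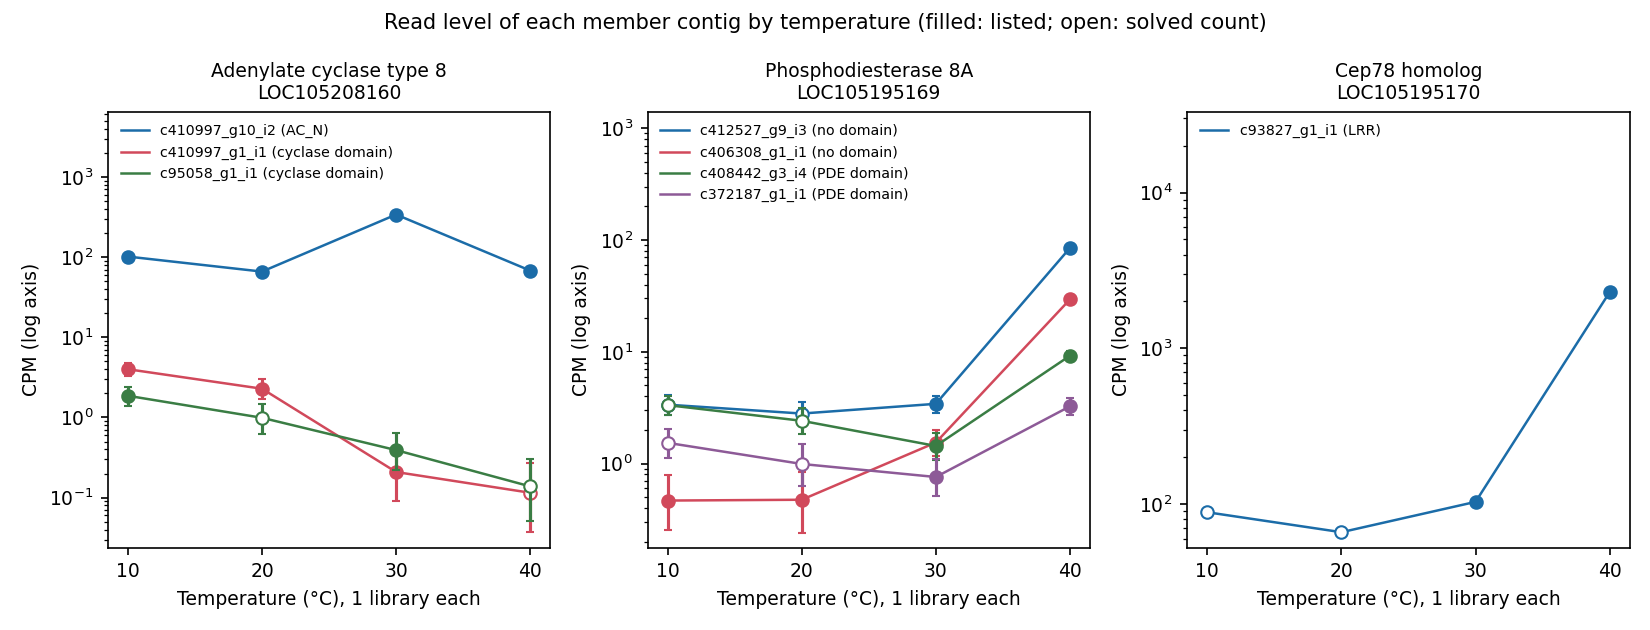
CPM (log axis) of the 8 contigs at 10, 20, 30 and 40 °C, 1 library each, in a panel per gene. Filled points are listed and open points solved counts; bars are 95% Poisson counting intervals, narrower than the points at high counts. The cyclase contig with the AC_N domain peaks at 30 °C and its cyclase-domain contigs are lower at each warmer temperature, while all phosphodiesterase 8A contigs and the Cep78 contig are highest at 40 °C.

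The main contig of adenylate cyclase type 8, c410997_g10_i2, was highest at 30 °C and lower at every other temperature. Its Pfam entry is AC_N, the N-terminal part of a membrane adenylate cyclase, a part that holds no catalytic site. A single Pfam entry was read per contig, so whether this contig also spans catalytic sequence was not tested. It is the only one of the 3 cyclase contigs listed in all tables. Its reads at 10, 20, 30 and 40 °C numbered 3046, 1530, 12983 and 2944, which is 101.5, 65.9, 339 and 67.8 CPM in that order. The 30 °C library stood above the other libraries, and the counting intervals of 40 and 20 °C overlapped. Against 30 °C the contig was 3.34-fold lower at 10 °C (interval 3.21 to 3.48), 5.14-fold lower at 20 °C (4.88 to 5.43) and 4.999-fold lower at 40 °C (4.80 to 5.21). On the FPKM scaling it was 8.01-fold lower at 20 °C and 3.50-fold lower at 40 °C, and 40 °C was then 2.29-fold above 20 °C, so the overlap of these libraries holds for the authors' scaling only. Among the listed contigs it held the 10th-lowest log2 ratio of 2953 at 20 °C and the 30th-lowest of 4067 at 40 °C. Whether fewer cells made this RNA or each cell held less of it cannot be told apart in whole bodies, here or for any value below.

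The cyclase contigs whose entry is the catalytic domain were rare and had another order, highest in the coldest library. Contig c410997_g1_i1 is listed at 10 and 20 °C only and c95058_g1_i1 at 10 °C only, each as higher than at 30 °C. They became members through that difference, so their high level in the cold is not a separate result. Contig c410997_g1_i1, which matches residues 1100 to 1294 of a Camponotus floridanus protein in the cyclase domain, had 120 reads at 10 °C, 53 at 20 °C, then 8 at 30 °C and a solved 5 at 40 °C. The levels were 3.997, 2.28, 0.209 and 0.115 CPM, so the cold libraries were high and the 30 and 40 °C libraries overlapped. It was 19.1-fold higher at 10 °C (9.40 to 45.3) and 10.9-fold higher at 20 °C (5.16 to 26.6) than at 30 °C. Contig c95058_g1_i1, with the domain at residues 380 to 564 of the same protein, had 56 reads at 10 °C, a solved 23 at 20 °C, then 15 at 30 °C and a solved 6 at 40 °C. It was 4.76-fold higher at 10 °C than at 30 °C (2.66 to 9.06). Its solved ratios were 2.53-fold higher at 20 °C (1.26 to 5.21) and 2.83-fold lower at 40 °C (1.04 to 8.92), each on few reads. The best protein hit of this contig is in the ant Harpegnathos saltator, and its best Swiss-Prot hit is rat adenylate cyclase type 5. Its KEGG entry, described as type 8, belongs to a species other than the fire ant. Only its nucleotide hit names the fire ant gene.

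Within 1 library the scaling cancels, and the cyclase contigs kept no common ratio across the libraries. For every 100 reads of the AC_N contig, c410997_g1_i1 had 3.94 reads at 10 °C (3.26 to 4.73), 3.46 at 20 °C (2.58 to 4.56), 0.0616 at 30 °C (0.0266 to 0.122) and 0.170 at 40 °C (0.0551 to 0.397). For c95058_g1_i1 the same measure was 1.84 at 10 °C, 1.503 at 20 °C, then 0.116 at 30 °C and 0.204 at 40 °C. Relative to the AC_N contig, both cyclase-domain contigs were thus higher in the 10 and 20 °C libraries, with intervals clear of those at 30 and 40 °C. These ratios reuse the counts through which the contigs were listed, so they are not a separate result. The AC_N contig held 94.5%, 95.3%, 99.8% and 99.6% of the reads of the gene's 3 listed contigs at 10, 20, 30 and 40 °C. The summed level of these contigs therefore followed it, at 107.3, 69.2, 339.8 and 68.1 CPM. The AC_N contig was the longest, with 0.873 of the Cep78 contig's length by the ratio of reads to FPKM, against 0.264 for c410997_g1_i1 and 0.0927 for c95058_g1_i1. Estimated counts can divide reads between contigs that share sequence, and whether these do was not tested.

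The 4 contigs assigned to phosphodiesterase 8A were all higher at 40 °C than at 30 °C. All of them but c406308_g1_i1 are listed at 40 °C only, so they became members through that difference. Their agreement that 40 °C differs is therefore not a separate result. The enzyme is named for its high affinity for cyclic AMP and for resisting the general inhibitor IBMX. Its most abundant contig, c412527_g9_i3, had a solved 101 reads at 10 °C, a solved 65 at 20 °C, then 131 at 30 °C and 3683 at 40 °C. The levels were 3.36, 2.80, 3.42 and 84.9 CPM, with the 3 cooler libraries overlapping and the 40 °C library far above them. The contig was 24.8-fold higher at 40 °C than at 30 °C (20.8 to 29.8), the second-highest log2 ratio of the 4067 listed contigs. Contig c406308_g1_i1, listed in all tables, had 14 reads at 10 °C, 11 at 20 °C, then 59 at 30 °C and 1276 at 40 °C. It was 19.1-fold higher at 40 °C than at 30 °C (14.7 to 25.2), and 3.31-fold lower at 10 °C (1.82 to 6.41) and 3.25-fold lower at 20 °C (1.69 to 6.87). It is the only member contig listed both as lower in the cold and as higher in the heat. Neither contig has a Pfam domain in the tables, and the best nucleotide hit of both is the same gene in the ant Monomorium pharaonis. Whether they are coding sequence of the enzyme, untranslated or intronic sequence was not tested. At 40 °C they held 67.0% and 23.2% of the reads of the gene's listed contigs.

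The other phosphodiesterase contigs hold PDEase_I, the catalytic domain of the family, and their ratios at 40 °C were smaller. Contig c408442_g3_i4 had a solved 100 reads at 10 °C, a solved 56 at 20 °C, then 55 at 30 °C and 400 at 40 °C, and was 6.41-fold higher at 40 °C than at 30 °C (4.83 to 8.67). Contig c372187_g1_i1 had a solved 46 reads at 10 °C, a solved 23 at 20 °C, then 29 at 30 °C and 141 at 40 °C, and was 4.29-fold higher at 40 °C (2.86 to 6.64). In both, the 40 °C library was the highest and the 20 and 30 °C libraries overlapped. Their solved ratios at 10 °C were 2.32-fold higher (1.65 to 3.28) and 2.02-fold higher (1.24 to 3.34) than at 30 °C, in the order named. The contigs were then summed by domain entry, a split made after the values were seen. Summed over both, the PDEase_I contigs were at 12.5 CPM at 40 °C against 2.19 CPM at 30 °C, 5.68-fold higher (4.51 to 7.24). The sum of the contigs without a domain was at 114.3 CPM at 40 °C against 4.96 CPM at 30 °C, 23.0-fold higher (19.9 to 26.8). At 10 °C the PDEase_I sum was 2.22-fold higher (1.68 to 2.93) and the other sum 1.30-fold lower (1.02 to 1.65) than at 30 °C. Within the other sum, c406308_g1_i1 was 3.31-fold lower at 10 °C. The solved ratio of c412527_g9_i3 was near 1 there (1.02-fold lower, 0.78 to 1.33). The PDEase_I contigs c408442_g3_i4 and c372187_g1_i1 held 38.3% and 17.6% of the reads of the gene's listed contigs at 10 °C, 36.1% and 14.8% at 20 °C, 20.1% and 10.6% at 30 °C, and 7.27% and 2.56% at 40 °C. The summed level of the gene's 4 listed contigs was 8.69 CPM at 10 °C, 6.68 at 20 °C, then 7.16 at 30 °C and 126.7 at 40 °C. At 40 °C it thus followed the contigs without a domain.

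**Figure D2:**
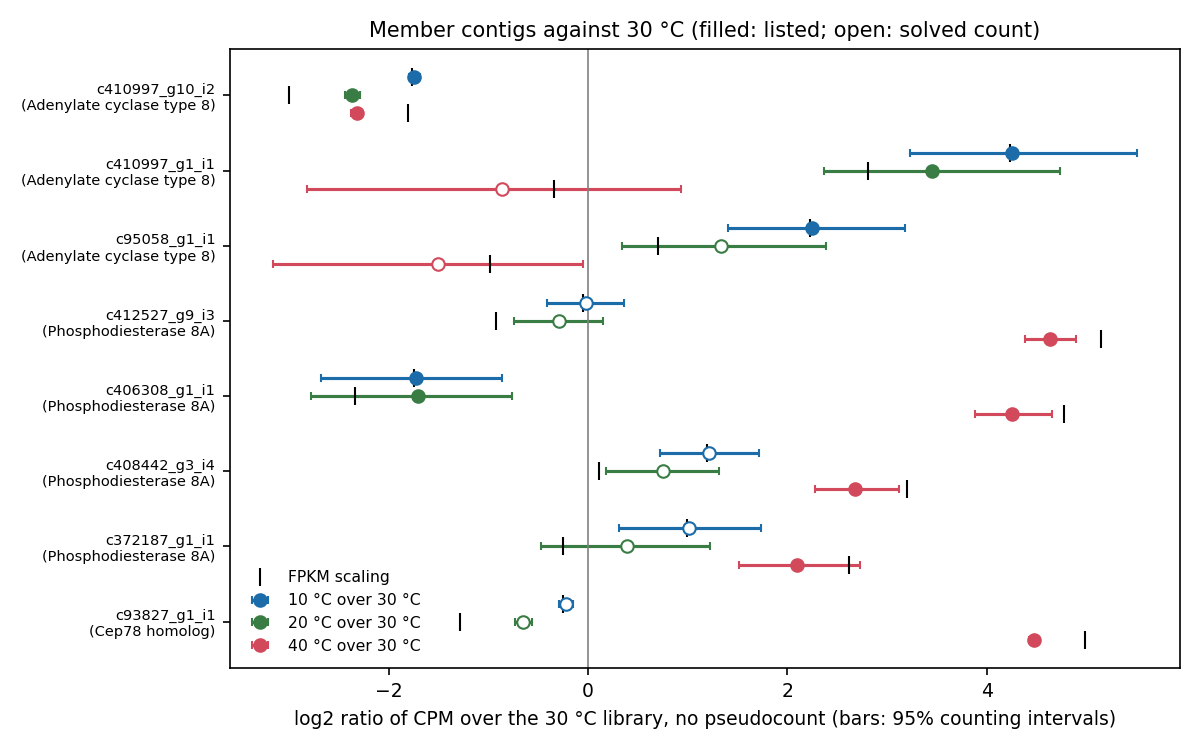
Log2 ratio of CPM over the 30 °C library for each contig at 10, 20 and 40 °C, with no pseudocount. Bars are 95% counting intervals, filled points are listed, open points are solved counts, and black ticks give the ratio on the FPKM scaling. The Cep78 contig and the 2 phosphodiesterase contigs without a domain lie near or above 4 at 40 °C, the PDEase_I contigs below 3, and the AC_N contig of the cyclase is on the negative side at every temperature.

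The Cep78 contig, c93827_g1_i1, had the highest ratio on log2(CPM + 1) of all 4067 contigs listed at 40 °C. It was also the contig with the most reads of that table at 40 °C. It holds a leucine-rich repeat (LRR_6) and its best Swiss-Prot hit is the Drosophila Cep78 homolog. It had a solved 2657 reads at 10 °C, a solved 1529 at 20 °C, then 3952 at 30 °C and 99435 at 40 °C, which is 88.5, 65.9, 103.2 and 2291 CPM. The 40 °C library stood far above the others, which differed from each other beyond counting error. The contig was 22.2-fold higher at 40 °C than at 30 °C (21.5 to 22.9), and by solved counts 1.17-fold lower at 10 °C (1.11 to 1.23) and 1.57-fold lower at 20 °C (1.48 to 1.66). On the FPKM scaling the ratio at 20 °C was 2.44-fold lower. By reads at 30 °C it ranked 74th among the contigs of the same table. With no CPM added, its fold at 40 °C was below that of c412527_g9_i3, which was 24.8-fold higher.

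Per length, the order of the members changed between 30 and 40 °C. At 40 °C the Cep78 contig was at 511.72 FPKM, c412527_g9_i3 at 24.39, the AC_N contig of the cyclase at 17.24 and c406308_g1_i1 at 16.05 FPKM. The PDEase_I contigs were at 7.78 FPKM (c372187_g1_i1) and 3.66 FPKM (c408442_g3_i4) at 40 °C. At 30 °C the AC_N contig led with 60.66 FPKM, the Cep78 contig had 16.23 FPKM, and the phosphodiesterase contigs lay between 0.40 and 1.26 FPKM.

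In the annotation of assembly UNIL_Sinv_3.0 the Cep78 gene lies inside the span of the phosphodiesterase 8A gene. The authors' genome build and the strandedness of the reads are not given in the sources used here, so reads from overlapping transcripts of these genes cannot be told apart. Within each library, c412527_g9_i3 kept a near constant ratio to the Cep78 contig. It had 3.80 reads for every 100 Cep78 reads at 10 °C (3.09 to 4.64), 4.25 at 20 °C (3.26 to 5.45), 3.32 at 30 °C (2.76 to 3.95) and 3.70 at 40 °C (3.58 to 3.83). These 4 intervals overlap, while the level of both contigs spanned more than 30-fold between the 20 and 40 °C libraries (30.3-fold for c412527_g9_i3, 34.8-fold for Cep78). Contig c406308_g1_i1 had 0.527 reads for every 100 Cep78 reads at 10 °C, 0.719 at 20 °C, then 1.49 at 30 °C and 1.28 at 40 °C. The PDEase_I contigs went the other way. Contig c408442_g3_i4 had 3.76 reads for every 100 Cep78 reads at 10 °C, 3.66 at 20 °C, then 1.39 at 30 °C and 0.402 at 40 °C. Contig c372187_g1_i1 had 1.73 at 10 °C, 1.504 at 20 °C, then 0.734 at 30 °C and 0.142 at 40 °C. Against Cep78, the contigs with the catalytic domain were thus lowest in the 40 °C library, and the domain-free contig c412527_g9_i3 differed by less than its counting error.

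**Figure D3:**
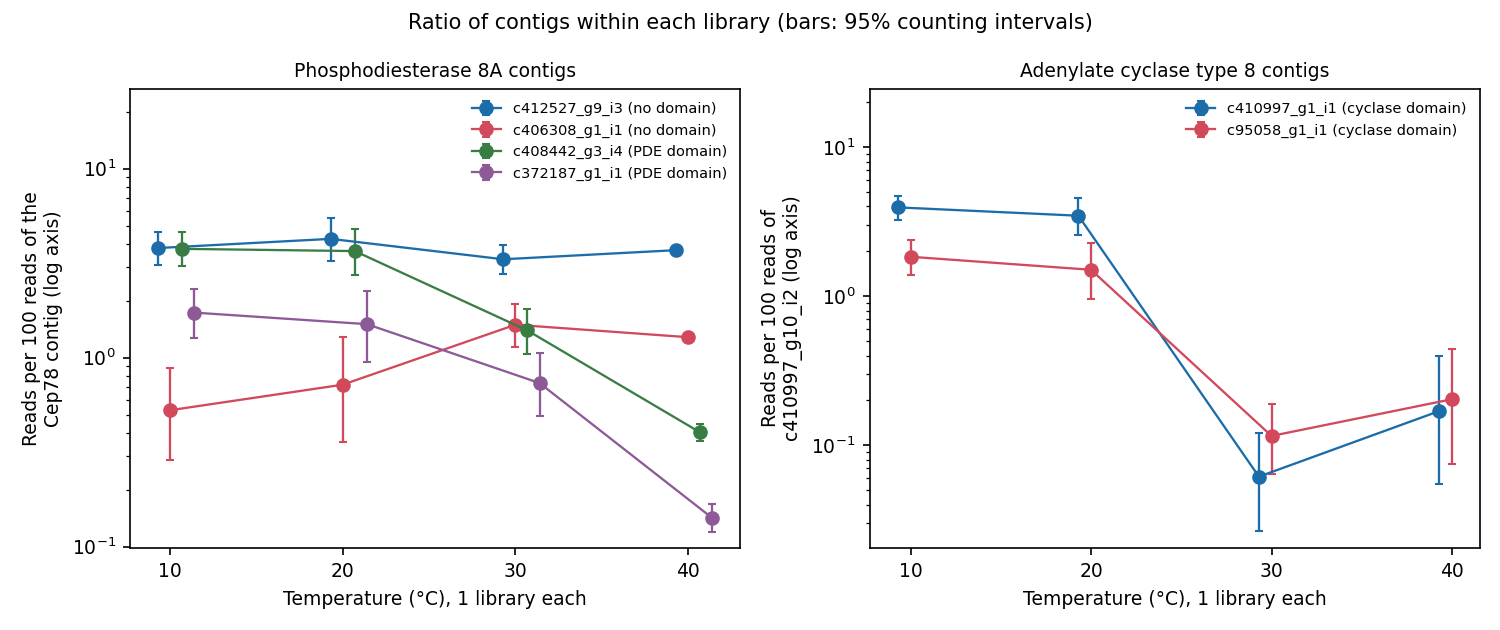
Left, reads of each phosphodiesterase 8A contig for every 100 reads of the Cep78 contig; right, reads of the cyclase-domain contigs for every 100 reads of the AC_N contig, both on log axes at 10, 20, 30 and 40 °C. Points are shifted sideways for legibility and bars are 95% counting intervals. Contig c412527_g9_i3 stays between 3.32 and 4.25 per 100 Cep78 reads, while both PDEase_I contigs are lowest at 40 °C, and the cyclase-domain contigs are high at 10 and 20 °C.

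Another gene that overlaps phosphodiesterase 8A in that annotation, LOC105195168, went the opposite way at 40 °C. It encodes protein lethal(2)essential for life, a small heat shock protein of insects. Its contig c407397_g1_i2 had 52 reads at 10 °C, a solved 586 at 20 °C, then 667 at 30 °C and 284 at 40 °C. It was lower at 40 °C, at 6.55 CPM against 17.4 CPM at 30 °C, 2.66-fold (2.31 to 3.07), and 10.1-fold lower at 10 °C (7.58 to 13.6). The noncoding gene LOC120357699, inside the phosphodiesterase gene, has no listed contig. Next to the cyclase gene, contig c403580_g1_i1 of LOC105208158, named lysine-specific demethylase 6A by its nucleotide hit, was 2.43-fold higher at 20 °C than at 30 °C (2.24 to 2.64) and 1.56-fold higher on the FPKM scaling, where the AC_N contig was lower on both.

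Contigs with the most similar patterns were sought by the distance between log2 ratios. Over the 3 ratios of the 4 libraries, 84 named contigs listed in all tables could be set against the AC_N contig of the cyclase. The nearest was a contig of the unc-79 homolog, LOC105200842, known in Drosophila and mammals as a part of the NALCN sodium leak channel complex, at a distance of 0.432. Next came a TRIO and F-actin-binding protein-like gene (0.702), a second unc-79 contig (0.907), a cytochrome P450 4C1-like gene (0.944) and neurobeachin (1.01), a protein of membrane traffic. For c412527_g9_i3 only the ratio at 40 °C was listed. Over that single ratio the nearest of 1127 named contigs were histone H2B-like (0.177), Cep78 (0.180) and histone H2A (0.221). Then came c406308_g1_i1 (0.699) and a reverse transcriptase (0.848). A distance over 1 ratio only repeats the ranking at 40 °C. At 10 °C the log2 ratios of the H2B-like and H2A contigs were 1.16 and 1.94, and that of c412527_g9_i3 was a solved -0.02. With solved counts over all 4 libraries, a comparison added after the data were seen, Cep78 was the nearest of 1123 contigs to c412527_g9_i3 (0.500). Both are listed at 40 °C only and became members through that difference, so their closeness is not a separate result. Cep78 was followed by the reverse transcriptase (0.860), a circadian clock-controlled protein-like gene (0.940) and heat shock protein 83 (0.990), the Hsp90 chaperone of insects. Then came the activator of that chaperone, Aha1 (1.13). The nearest contigs to Cep78 over all libraries were c412527_g9_i3 (0.500), c406308_g1_i1 (1.06) and the circadian clock-controlled protein-like gene (1.11). Over the 40 °C ratio alone they were c412527_g9_i3, histone H2B-like (0.356) and histone H2A (0.401).

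The other genes of cyclic nucleotide signalling were found by protein description, in 7 roles. At 40 °C 33 contigs of this list were listed, the members among them, 21 higher and 12 lower than at 30 °C, beside 1899 higher and 2168 lower of all 4067. Among the 23 whose mean reached 1 CPM, 14 passed 2-fold upwards and 8 downwards, beside 40.1% and 43.4% of all 2210 such contigs. Their median log2 ratio was 1.11, where that of all 2210 was -0.82. On the FPKM scaling 17 passed upwards and 5 downwards, where 71.8% of all contigs past 2-fold were higher. The list without descriptions of another function, added after the data were seen, had 11 higher and 8 lower past 2-fold. Without the members 10 were higher and 7 lower past 2-fold of 18, with a median of 1.097. Some descriptions in the list name relatives with another job, such as the beta-like G protein subunits and the receptor kinases.

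At 40 °C the 3 counted cyclase contigs, the AC_N member among them, were at least 2-fold lower, beside 43.4% of all counted contigs. Of 5 counted phosphodiesterase contigs 4 were higher. These 4 are contigs of 1 chosen gene, so they do not stand for the family. Guanylate cyclase soluble subunit beta-1, part of the nitric oxide receptor that makes cyclic GMP, was at 30.4 CPM at 40 °C against 98.4 CPM at 30 °C, 3.24-fold lower (3.04 to 3.45). The head-specific guanylate cyclase was at 23.3 CPM at 40 °C against 58.0 CPM at 30 °C, 2.49-fold lower (2.31 to 2.69). Adenylate cyclase type 2 was higher, but on 57 reads at 40 °C against 14 at 30 °C. The single phosphodiesterase outside the members, the cyclic GMP-specific 9A, was 2.48-fold lower (2.24 to 2.74), so every higher phosphodiesterase contig belonged to phosphodiesterase 8A. The cyclic nucleotide-gated cation channel alpha-3, which cyclic GMP opens in vertebrate photoreceptors, was 3.30-fold lower at 40 °C (3.07 to 3.54). A rhodopsin contig, the marker of the eye, was lower at 40 °C as well, with 33.7 CPM against 87.2 CPM at 30 °C, while apolipophorin, a marker of the fat body, summed to 454.7 CPM against 140.2 CPM and odorant-binding proteins of the antenna to 1089 CPM against 376.4 CPM. The part of these markers in the results was not tested.

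At 40 °C 2 of 2 counted kinase and anchor contigs, 2 of 2 factors and 3 of 3 G proteins, a beta-like protein among them, were at least 2-fold higher, beside 40.1% of all counted contigs. The type II regulatory subunit of protein kinase A, which holds the kinase inactive until cyclic AMP binds, had 1736 reads at 40 °C against 479 at 30 °C and was 3.20-fold higher (2.89 to 3.55). A-kinase anchor protein 14-like was 6.42-fold higher (5.04 to 8.29), at 12.6 CPM at 40 °C against 1.96 CPM at 30 °C. Both counted factors, CREB A-like and CREB 1, were higher, 3.62-fold (3.03 to 4.35) and 2.76-fold (2.20 to 3.47) in that order. The stimulatory G protein alpha subunit, which switches adenylate cyclase on, was 3.24-fold higher (2.59 to 4.08), and the alpha q subunit, which acts through phospholipase C, was 4.01-fold higher (2.56 to 6.52). Among 12 listed contigs of the receptor role, 1 of them a receptor kinase, 7 were higher and 5 lower, beside 1899 and 2168 of all 4067. The receptor of the clock neuropeptide PDF, which raises cyclic AMP in Drosophila, was at 2.42 CPM at 40 °C against 16.3 CPM at 30 °C (interval of the lower fold 5.47 to 8.37). The probable muscarinic receptor gar-1 was 6.76-fold higher (4.92 to 9.47) and G protein-coupled receptor kinase 5, which turns receptors off, was 3.04-fold higher (2.63 to 3.53).

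**Figure D4:**
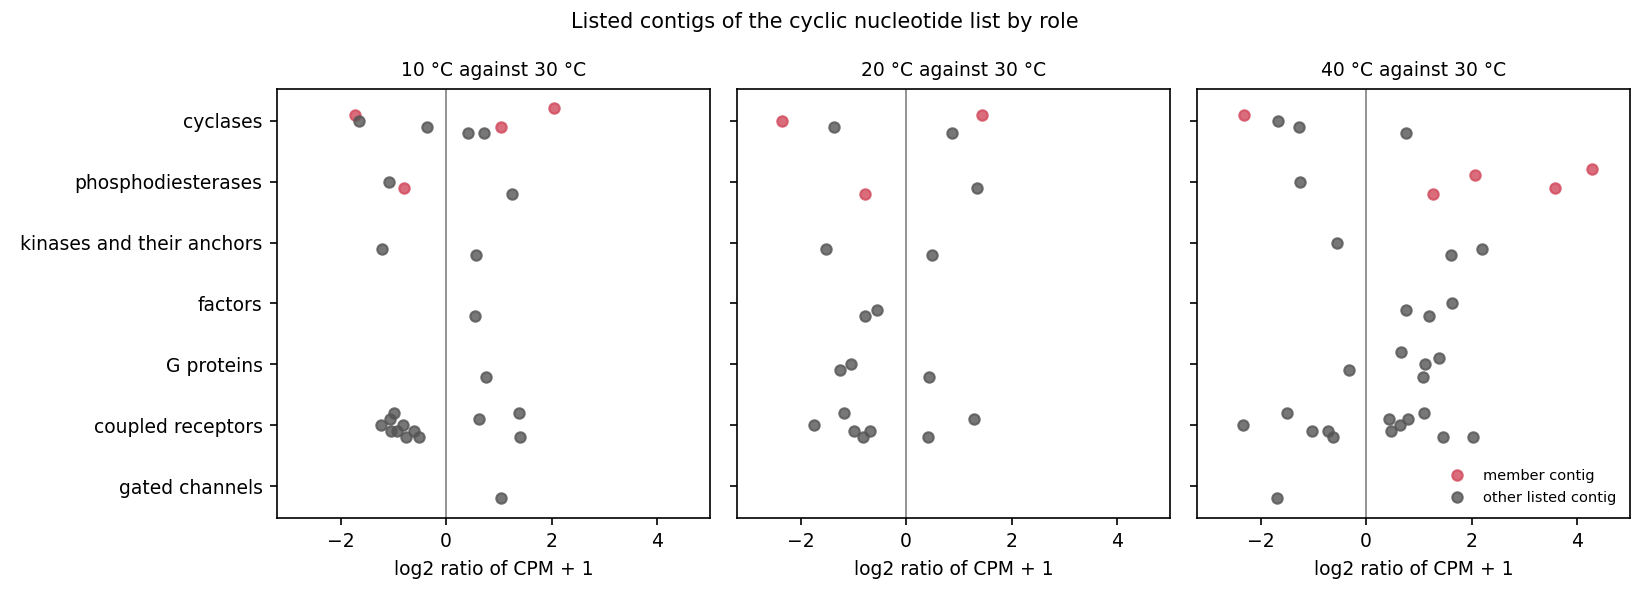
Log2 ratio of CPM + 1 for every listed contig of the cyclic nucleotide list by role, at 10, 20 and 40 °C against 30 °C, with 1 point per contig, members in red and others in grey; points are spread vertically for legibility, "factors" are CREB and related factors and "gated channels" are cyclic nucleotide-gated channels. At 40 °C the red phosphodiesterase points lie to the right of 0 and most cyclase points to the left; at 10 and 20 °C cyclases lie on both sides.

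At 10 °C 27 contigs of the list were listed, of which 12 were higher and 15 lower, beside 2599 higher and 1997 lower of all 4596. Past 2-fold 6 were higher and 7 lower, or 4 and 7 without descriptions of another function, beside 36.2% higher and 47.0% lower of all counted contigs. The 16 counted contigs had a median log2 ratio of -0.96, where that of all counted contigs was -0.93. Cyclases stood on both sides. The cyclase-domain contigs of adenylate cyclase type 8 were higher. The head-specific guanylate cyclase was 3.25-fold lower (2.96 to 3.58), at 17.8 CPM at 10 °C against 58.0 CPM at 30 °C. Besides phosphodiesterase 8A, the delta subunit of the rod phosphodiesterase, a carrier of lipid-modified proteins, was 2.72-fold higher (2.24 to 3.31), and a cyclic GMP-specific phosphodiesterase was 2.45-fold lower (1.95 to 3.09). The mitochondrial A-kinase anchor protein 1 was 2.65-fold lower at 10 °C (2.17 to 3.25) and 3.43-fold lower at 20 °C (2.68 to 4.42) than at 30 °C. Of 12 contigs in the receptor role 9 were lower, among them the octopamine receptor beta-2R at 2.97-fold (2.07 to 4.37) and the dopamine receptor 2-like gene at 2.71-fold (2.20 to 3.36). A dopamine receptor 1 contig, c409645_g3_i1, was 3.68-fold higher at 10 °C (2.73 to 5.01) and 3.35-fold higher at 20 °C (2.45 to 4.63). A hyperpolarization-activated cyclic nucleotide-gated channel was 2.77-fold higher at 10 °C (2.01 to 3.85). Tissue markers differed from 30 °C at these temperatures too. Listed venom allergen contigs summed to 1155 CPM at 10 °C against 356.8 CPM at 30 °C, and to 1846 CPM at 20 °C against 362.3 CPM at 30 °C. Listed odorant-binding protein contigs summed to 151.1 CPM at 10 °C against 393.5 CPM at 30 °C, and to 148.3 CPM at 20 °C against 393.2 CPM at 30 °C. An apolipophorin contig was at 28.8 CPM at 10 °C against 77.2 CPM at 30 °C, and the part of these markers in the values at 10 and 20 °C was not tested.

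At 20 °C 20 contigs were listed, 7 higher and 13 lower, beside 1546 and 1407 of all 2953, with a median log2 ratio of -1.11 over 12 counted contigs, beside -0.97 over all. Past 2-fold 3 were higher and 7 lower, beside 31.4% and 48.3% of all counted contigs. On the FPKM scaling 0 were higher and 8 lower, beside 129 and 755 of all. Guanylate cyclase soluble subunit beta-1 was at 37.5 CPM at 20 °C against 98.4 CPM at 30 °C, 2.63-fold lower (2.44 to 2.83). The dual-specificity phosphodiesterase 11-like gene was 2.81-fold higher (2.38 to 3.32). A second dopamine receptor 1 contig, c409645_g1_i1, was 4.10-fold lower at 20 °C (3.21 to 5.31), so 2 contigs with the same protein description lay on opposite sides of 30 °C, as the cyclase contigs did.

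Cep78 did not share its direction with most of the centrosome and cilium list at 40 °C. Of the 18 other listed contigs 5 were higher and 13 lower, beside 2168 lower of all 4067. Of these, 10 were counted and 8 were at least 2-fold lower, beside 43.4% of all counted contigs, with a median log2 ratio of -1.28 beside -0.82 for all. A heavy chain of the flagellar inner arm dynein was at 4.31 CPM at 40 °C against 23.0 CPM at 30 °C, 5.33-fold lower (4.55 to 6.27). Axonemal dynein heavy chain 5, a motor of cilia, was 5.41-fold lower (4.04 to 7.35), and the Cep290-like gene was 2.65-fold lower (2.32 to 3.02). At 10 °C 8 of 16 were higher and 8 lower, beside 2599 and 1997 of all 4596. Past 2-fold 4 were higher and 4 lower of 9 counted, beside 36.2% and 47.0% of all counted contigs. Intraflagellar transport protein 22 was 3.52-fold higher (2.89 to 4.31) and intraflagellar transport protein 46 was 5.14-fold lower (3.46 to 7.88). At 20 °C 9 of 12 were higher, beside 1546 of all 2953. A POC1 centriolar protein A contig was 3.03-fold higher (2.26 to 4.08), and intraflagellar transport protein 80 was 10.3-fold lower (6.13 to 18.7).

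The tables hold contigs with a raw p under 0.05 in the authors' comparison, so listing depends on reads as well as on fold. The smallest listed folds at 10, 20 and 40 °C were 2.359, 2.355 and 2.353. The listed member ratios closest to 1 were those of c406308_g1_i1 at 20 and 10 °C, 3.25-fold and 3.31-fold lower, and of the AC_N contig at 10 °C, 3.34-fold lower. The unlisted member ratios farthest from 1 were c95058_g1_i1 at 40 °C, 2.83-fold lower with 6 reads against 15 at 30 °C, the same contig at 20 °C, 2.53-fold higher, and c408442_g3_i4 at 10 °C, 2.32-fold higher.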

How the data were processed

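Total RNA of whole workers was reverse transcribed with an oligo-dT primer and sequenced on an Illumina instrument, per the labels' protocols. The submitters' processing notes name RSEM, Bowtie 1.1.2, Trimmomatic 0.38 and FastQC 0.11.7. The assembler, build and strandedness are not given in the sources used here. Per the file headers, the authors' tables hold estimated counts, FPKM, log2 normalized values, a signed fold change (a score here), adjusted and raw p-values, and a mean log2 CPM for each contig. The estimated counts deposited were whole numbers. The log2 values deposited equal log2(CPM + 1), which gave the scaled library sizes. The FPKM values deposited follow another scaling. The authors' p-values rest on no replicate and are not printed. A read was worth less than 0.05 CPM in each library, and 3 reads, the limit that a count of 0 allows, 0.0691 to 0.129 CPM.

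The members and lists were chosen with earlier results of these data known. Ratios are of CPM, with exact Clopper-Pearson 95% intervals of the conditional binomial share, with 1 CPM added to both values in log2 ratios. Contigs were counted past 2-fold where their mean reached 1 CPM. The deposited mean log2 CPM equals aveLogCPM of edgeR 4.0.16 over 4 libraries with a prior count of 2 and a dispersion of 0.05, to within 7.55e-15, which let unlisted counts be solved. Of 1995 values solved for libraries outside a contig's tables, 0 were past the authors' limits. Named genes are the member contigs, listed contigs of overlapping or adjacent genes, up to 4 contigs per role and comparison with the largest absolute log2 ratio and 50 or more reads in the higher library, and the 5 contigs nearest to each gene's most read contig. The text leaves out some of these values. No sequence is printed, because the files and reference tables used here hold none for these contigs. The formulas were tested on simulated data, where 96.4% of the intervals held the true ratio in the 40 °C setting of 4067 contigs and 100% of 400 hidden pairs of counts were solved. Alternatives were pseudocounts of 0.1 and 5 CPM, no filter or 10 CPM, the FPKM scaling, a 4-fold limit and the most read contig alone. Work was done in R 4.3.3 and in Python 3.11.15 with SciPy 1.17.1, numpy 2.4.6, matplotlib 3.10.9 and pandas 2.3.3.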

Additional observations from a re-analysis of the deposited data

Results flagged for a closer look

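Among listed ratios, 5 differences between temperatures drew attention. In each, a contig was higher than 30 °C at one temperature and lower at another, beyond counting error in both. Solved ratios were not searched, and with them c95058_g1_i1 (4.76-fold higher at 10 °C, a solved 2.83-fold lower at 40 °C) also qualifies. So does c407397_g1_i2 (a solved 1.45-fold higher at 20 °C, 10.1-fold lower at 10 °C). None of these differences was tested, and each pair shares the 30 °C library. Phosphodiesterase 8A contig c406308_g1_i1 had 1276 reads at 40 °C and 14 at 10 °C, against 59 at 30 °C, and its log2 ratio at 40 °C exceeded that at 10 °C by 4.37. With 11 reads at 20 °C, the gap between 40 and 20 °C was 4.37 too. Adenylate cyclase type 2, contig c402259_g2_i1, had 57 reads at 40 °C and 2 at 10 °C, against 14 at 30 °C, a gap of 1.12. The probable muscarinic receptor gar-1, contig c408522_g1_i1, had 337 reads at 40 °C and 8 at 20 °C, against 44 at 30 °C, a gap of 2.70. The ciliary dynein intermediate chain 3, contig c412982_g1_i2, ran the other way, with 386 reads at 40 °C and 2087 at 10 °C, against 843 at 30 °C, a gap of -2.83.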

How the results depend on the processing

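No paired analysis was possible because each temperature has 1 library, and no library could be left out. Under pseudocounts of 0.1 and 5 CPM and the FPKM scaling, 13, 7 and 11 of the 13 listed member ratios in that order were at least 2-fold. All 13 kept their direction, which was certain in advance. A pseudocount added to both values cannot reverse a ratio, and the FPKM shifts are smaller than every listed member ratio. Of the 11 solved ratios 10 kept their direction on the FPKM scaling. The exception was c372187_g1_i1 at 20 °C. On the FPKM scaling log2 ratios moved to -2.97 at 20 °C and -1.80 at 40 °C for c410997_g10_i2, and at 40 °C to 4.79 for c412527_g9_i3, 4.08 for c406308_g1_i1, 2.54 for c408442_g3_i4 and 4.97 for Cep78. With 0.1 CPM they were 3.73 at 10 °C and 2.95 at 20 °C for c410997_g1_i1 and 1.998 at 10 °C for c95058_g1_i1. At 40 °C they were 4.59 for c412527_g9_i3, 4.17 for c406308_g1_i1, 2.60 for c408442_g3_i4 and 1.97 for c372187_g1_i1. With 5 CPM c410997_g1_i1 was at 0.79 at 10 °C, and at 40 °C c410997_g10_i2 was at -2.24, c412527_g9_i3 at 3.42, c406308_g1_i1 at 2.40, c408442_g3_i4 at 1.14, c372187_g1_i1 at 0.52 and Cep78 at 4.41. A larger pseudocount shrinks ratios of contigs with few reads by construction. Listed contigs past 2-fold numbered 1759, 1084 and 1846 at 10, 20 and 40 °C. They numbered 350, 267 and 650 with a filter of 10 CPM, 461, 307 and 732 with 5 CPM, and 182, 68 and 204 past 4-fold. The share that was higher moved from 43.6% at 10 °C and 39.4% at 20 °C to 32.0% and 26.6% with the 10 CPM filter, and past 4-fold to 67.6%, 60.3% and, at 40 °C, 59.8% against 48.0%. The most read contig alone gave -1.73 for the cyclase at 10 °C, against -1.65 for its sum, and 4.28 for phosphodiesterase 8A at 40 °C, against 3.97. Low counts limit the cyclase-domain contigs most, with 5 to 15 reads at 30 and 40 °C.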
